A study of Homo sapiens with 40 samples.

Results

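The 33 genes described here belong to the amino acid response of the transcription factor ATF4 and were taken as a named list of symbols, matched to the Ensembl identifiers of the count tables. All 33 were found among the 60708 genes counted, with 1 identifier each. They comprise 6 regulators, 5 enzymes of serine, glycine and folate metabolism, 3 enzymes of asparagine and proline synthesis, 6 transporters and receptors, and 13 cytosolic aminoacyl-tRNA synthetases. Their RNA was measured in 24 RNA-seq libraries, 3 in each of 8 groups. The 16 ATAC-seq samples of the series were not analysed here.

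The MI-spheres were 3D cultures of MCF-10A, an immortalized mammary epithelial line with a WT genotype on its labels, on ultra-low attachment plates. The MII-spheres were grown in the same way from MCF-10AneoT, the derivative transformed with HRAS. Spheres of each line received TGFβ at 2.5 ng/ml for 16 h or none (Ctrl). The remaining 4 groups were monolayers of MDA-MB-231, a triple-negative breast cancer line, for which the sample titles name no TGFβ. WT is the untreated line. SLUG KO was made from it with Cas9 and a guide against the start of SNAI2 (SLUG), and its cells were expanded from single-cell colonies, without a statement of how many clones entered the libraries. Csi and siSMAD2/3/4 are the genotypically WT line after transient transfection with a scrambled siRNA or with siRNAs against SMAD2, SMAD3 and SMAD4. The labels number the 3 libraries of a group as biological replicates and give no ages or donors, and the p-values measure the spread between these libraries only.

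ATF4 is a basic leucine zipper factor whose translation rises when eIF2 is phosphorylated by kinases that sense amino acid shortage, unfolded protein in the endoplasmic reticulum, heme deficiency or viral RNA. Because this control acts on translation, the level of ATF4 RNA need not follow the level or activity of the protein. ATF4 binds C/EBP-ATF response elements and induces amino acid transporters, enzymes of serine and asparagine synthesis and most cytosolic aminoacyl-tRNA synthetases, which load amino acids onto their tRNAs. The same pathway induces DDIT3 (CHOP), TRIB3 and CHAC1 when stress persists, and PPP1R15A (GADD34), which directs a phosphatase to eIF2 and so closes the loop.

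RefSeq promoter windows of 300 bases (GRCh38.p14, 250 before to 50 after the start site) were at hand for 26 of the 33 genes, 39 windows in all. The core of the C/EBP-ATF response element was searched as TGATGNAA on both strands, and 11 of the 39 windows (28.2%), from 11 genes, held it, against 3.62% of all 35116 windows of this length. The windows share genes and were chosen through the gene list, so these shares are a description, and a match shows neither binding nor use of a site. The windows below were picked after the TGFβ results were seen, with ASNS and CHAC1 as the genes that fell. The windows are shown because their genes moved in opposite directions with TGFβ while matching the same pattern, although the letter at its N differs among them. Each is 30 bases on the strand of the gene, 5′ to 3′, with the match in capitals, which reads TTNCATCA where the element lies on the opposite strand.
ASNS: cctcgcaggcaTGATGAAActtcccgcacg
CHAC1: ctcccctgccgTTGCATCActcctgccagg
TARS1: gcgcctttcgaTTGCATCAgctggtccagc
IARS1: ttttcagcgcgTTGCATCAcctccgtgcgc
GARS1: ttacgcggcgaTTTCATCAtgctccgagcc
SLC7A1: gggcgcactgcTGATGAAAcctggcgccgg
SLC3A2: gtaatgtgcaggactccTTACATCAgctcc

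The ASNS match lies at chr7:97872469-97872476, bases -68 to -61 from the start site, and the CHAC1 match at chr15:40953262-40953269, bases -209 to -202. The matches of the synthetases shown sit closer to the start site. That of TARS1 is at chr5:33440967-33440974 (3 to 10), that of IARS1 at chr9:92293703-92293710 (-13 to -6) and that of GARS1 at chr7:30594845-30594852 (-33 to -26). The match of SLC7A1 is at chr13:29595674-29595681 (8 to 15) and that of SLC3A2 at chr11:62881736-62881743 (38 to 45), both within the transcribed part of the window. ASNS, IARS1 and SLC7A1 are read from the minus strand and the other 4 from the plus strand. The windows of AARS1, CARS1, MARS1 and NARS1 held a match too, that of AARS1 at -187 to -180, farther from the start site than that of ASNS. In stimulated MI-spheres CARS1, MARS1 and NARS1 were not called, and the call of AARS1 was lost in 7 alternative settings. In stimulated MII-spheres MARS1 and NARS1 were higher, AARS1 was lower and CARS1 was not called. No window was at hand for PSPH, SHMT2, PYCR1, SLC7A11, LARS1, VARS1 and YARS1.

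Levels are given as CPM, the count of a gene relative to the TMM-scaled size of its library. The scaling was done separately for the sphere libraries, for WT with SLUG KO and for Csi with siSMAD2/3/4. Groups of different sets are therefore only set side by side. A log2 fold-change is followed by its standard error (SE), and the adjusted p comes from the quasi-likelihood F test of edgeR, corrected by Benjamini-Hochberg across every gene in the fit. A gene was called significantly higher or lower at an adjusted p under 0.05, and was a DEG if its absolute log2 fold-change also exceeded 1. All 33 genes passed the filter on low counts in every comparison. Pseudogenes named after a gene number 7 for MTHFD2 and 4 each for ATF4, PSAT1 and ASNS, and read pairs shared with such copies may be missing from their counts.

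Libraries held 14124688 to 38406952 counts on genes. Log2 CPM of replicates correlated with r of at least 0.997 in 7 groups and of 0.974 to 0.977 in WT. WT replicate 2 had a mitochondrial RNA share of 2.40% against 0.656% and 0.812% in the other WT libraries, so the results for SLUG KO are given with and without it. The epithelial marker CDH1 (508 to 713 CPM) was abundant in the spheres and the mesenchymal marker VIM (610 to 1049 CPM) in MDA-MB-231. Other epithelial markers did not share the level of CDH1. KRT14 was scarce in the unstimulated spheres of both lines, and KRT5 was lower in MII Ctrl than in MI Ctrl, with values given below. TP63, a defining marker of basal mammary cells, was at 47.6 to 85.5 CPM in MI-spheres but at 0.461 to 2.78 CPM in MII-spheres. Of the markers of other cell types, PTPRC (leukocytes) stayed at or under 0.581 CPM and ALB (liver) near 0, while PECAM1 (endothelium) averaged 103.2 CPM in unstimulated MII-spheres and 9.56 CPM in MI-spheres. SMAD2 averaged 91.3 CPM in Csi and 24.1 CPM in siSMAD2/3/4, SMAD4 55.8 and 16.9 CPM, and SMAD3 269 and 166 CPM, all significantly lower with the siRNAs. SNAI2 RNA was not lower under the knockout label, with 33, 22.4 and 35.2 CPM in WT and 66.2, 61.4 and 67.3 CPM in the libraries labelled SLUG KO (log2 fold-change 1.10, SE 0.214, edgeR adjusted p = 0.0399), a call that held in 5 of 13 alternative settings. The count covers the whole gene and does not show whether the coding frame was disrupted. The paper reports that its knockout clones were checked by ddPCR and immunoblotting, so RNA counts do not settle the state of the protein. HRAS averaged 39.7 CPM in unstimulated MI- and 217 CPM in unstimulated MII-spheres.

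Stimulation of MI-spheres with TGFβ split the response. Serine synthesis enzymes and most synthetases (10 of 13) rose while DDIT3, CHAC1 and ASNS fell, with no called change of ATF4 RNA. Exons of other genes cover 39.6% of the exon length of DDIT3 and 49.3% of that of ASNS, so their counts are uncertain. Of the 33 genes, 23 were significantly higher and 5 lower, where 28.7% of all genes tested were higher and 27.4% lower. The median log2 fold-change was 0.40 over the 33 genes and -0.016 over all genes tested. DEGs numbered 6 of the 33 (4 higher, 2 lower). Of all 16863 genes tested, 13.6% were DEGs in either direction, 613 higher and 1672 lower. In the same libraries the summed level of 5 epithelial markers (KRT5, KRT14, TP63, CDH1 and EPCAM) was 720 to 739 CPM in Ctrl and 1251 to 1302 CPM with TGFβ, with all 5 detected. The sum of 4 mesenchymal markers (VIM, ZEB1, CD44 and AXL) was 189.7 to 195.1 CPM and 322.1 to 362.3 CPM. The hormone receptor and ERBB2 sum was 323.6 to 333.4 CPM in Ctrl and at most 217.6 CPM with TGFβ, and the mitochondrial RNA share was 0.687% to 0.789% and 0.423% to 0.572%. Their part in these differences was not tested, and in bulk RNA fewer cells of a type and less RNA per cell cannot be told apart.

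PSAT1, the aminotransferase of the serine pathway, was measured at 7.36, 6.97 and 7.60 CPM in MI Ctrl and at 30.4, 33.1 and 30.4 CPM in MI TGFβ. It rose 4.21-fold (log2 fold-change 2.08, SE 0.0874, edgeR adjusted p = 3.05e-14), with every stimulated library above every Ctrl library. PSPH, the phosphatase that releases serine in the last step, stood at 9.73, 10.5 and 10.3 CPM in Ctrl and at 35.0, 31.1 and 36.8 CPM with TGFβ. Its rise of 1.73 (SE 0.0858, edgeR adjusted p = 4.60e-13) likewise left a wide gap between the groups. PHGDH, which draws 3-phosphoglycerate from glycolysis into the pathway, rose by 0.97 (SE 0.0917, edgeR adjusted p = 1.57e-08). The mitochondrial enzymes SHMT2 and MTHFD2, which pass the carbon of serine into the folate cycle, rose by 0.60 and 0.51, so that all 5 genes of this branch were significantly higher.

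The regulators did not move as a group, with 2 higher, 3 lower and 1 not called. TRIB3, a pseudokinase that restrains ATF4 and AKT, was at 23.2, 22.5 and 26.8 CPM in Ctrl and at 71.9, 74.5 and 83.4 CPM with TGFβ (log2 fold-change 1.65, SE 0.0749, edgeR adjusted p = 1.10e-13). CHAC1, which degrades glutathione, went the other way, from 4.62, 4.99 and 6.03 CPM to 1.08, 0.765 and 0.510 CPM. Its fall of 6.85-fold (log2 fold-change -2.78, SE 0.238, edgeR adjusted p = 3.40e-09) was the steepest of the 33 genes, with 13 to 21 counts a library left under TGFβ. DDIT3, the CHOP factor of persistent stress, was at 3.91, 4.66 and 4.20 CPM in Ctrl and at 2.32, 2.38 and 2.67 CPM with TGFβ (log2 fold-change -0.81, SE 0.173, edgeR adjusted p = 4.93e-04). Exons of other genes, MARS1 among them, cover 39.6% of its exon length, and strand was ignored in counting, which makes its count uncertain. ATF4 itself was measured at 295, 313 and 320 CPM in Ctrl and at 334, 313 and 345 CPM with TGFβ. Its groups overlapped, and the log2 fold-change of 0.07 (SE 0.0526, edgeR adjusted p = 0.236) has a 95% interval of -0.03 to 0.18. CEBPB, a partner of ATF4 on the response element, fell by 0.39, and SESN2, which relays leucine shortage to mTORC1, rose by 0.29.

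**Figure D1:**
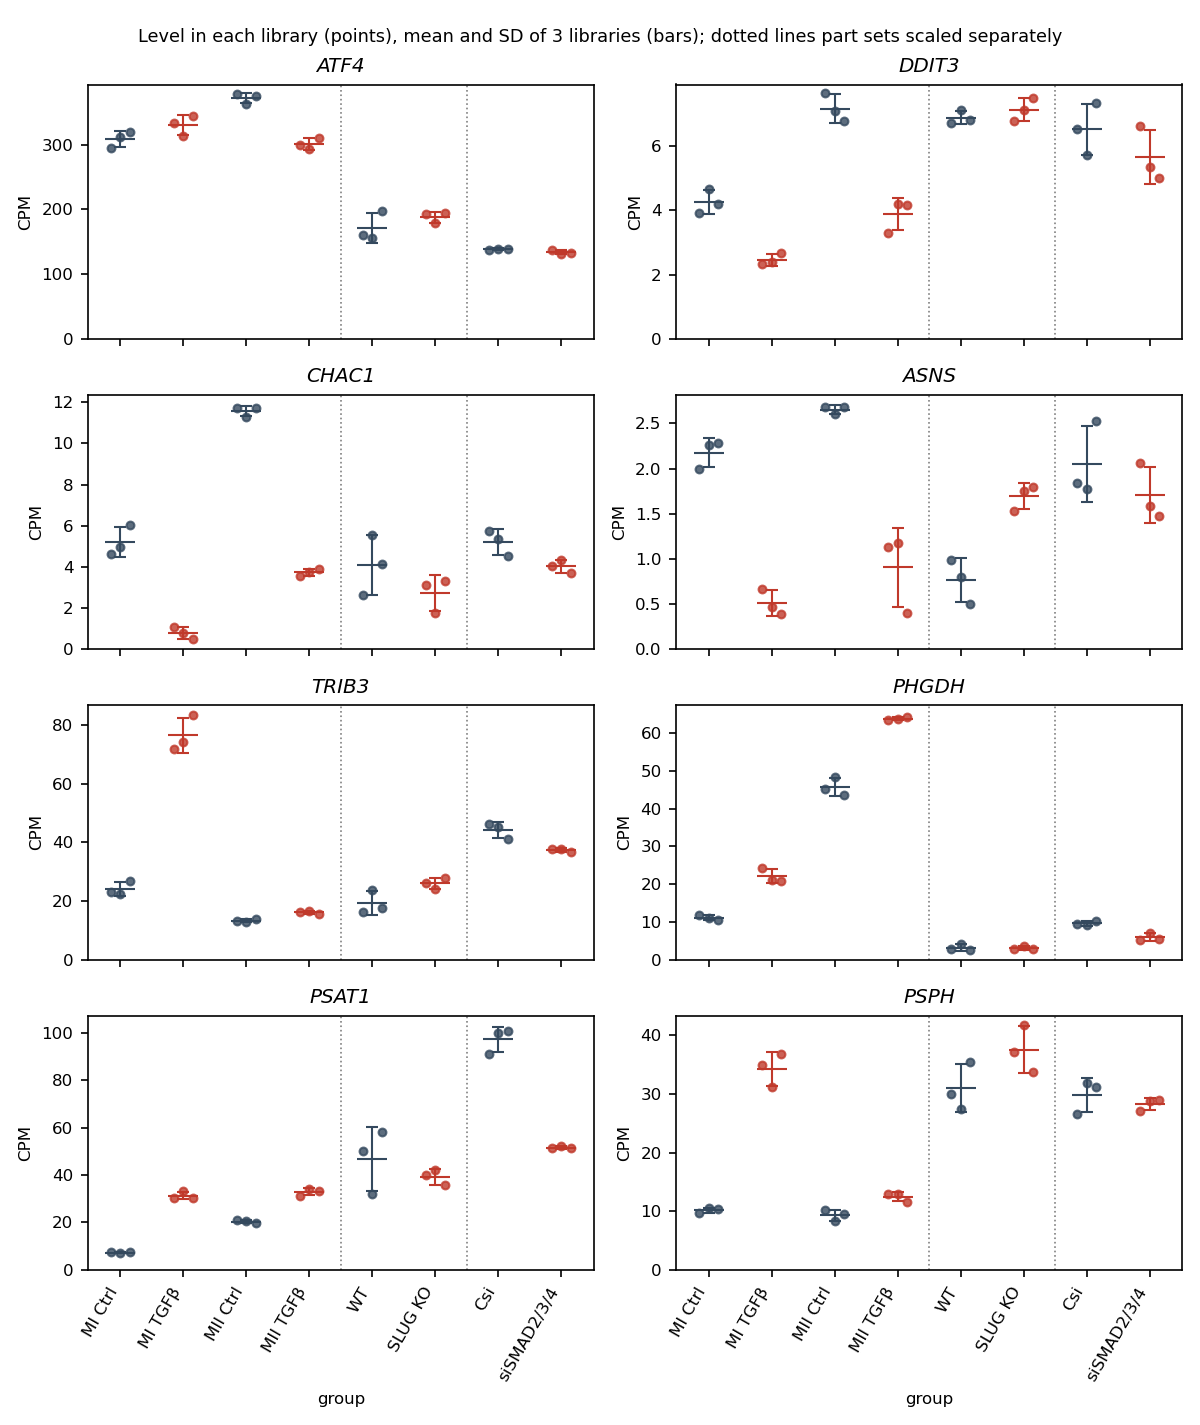
CPM (vertical axes, from 0) of 8 genes in each library of the 8 groups (horizontal axis), with points for libraries and bars for mean and SD of 3 libraries. CHAC1 in MI-spheres fell from 4.62 to 6.03 CPM in Ctrl to 0.510 to 1.08 CPM with TGFβ, whereas PSAT1 rose from 6.97 to 7.60 CPM to 30.4 to 33.1 CPM.

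ASNS, which makes asparagine and is a classical ATF4 target, had few counts, 45 to 53 per library in MI Ctrl and 10 to 13 in MI TGFβ. These correspond to 1.99, 2.26 and 2.28 CPM and to 0.669, 0.468 and 0.393 CPM, a log2 fold-change of -2.13 (SE 0.303, edgeR adjusted p = 4.89e-06). A readthrough gene on the same strand, ENSG00000284707, covers 49.3% of the exon length of ASNS, and pairs that touched 2 genes were assigned to neither, so the ASNS count stems from the remaining exons. The readthrough gene held 25 to 47 counts in MI Ctrl and 24 to 29 in MI TGFβ. The proline enzymes ALDH18A1 and PYCR1 rose by 0.40 and 0.59, and 29.7% of the exon length of PYCR1 overlaps other genes. Among transporters, SLC7A5 and SLC3A2, the subunits of the leucine carrier LAT1, rose by 0.44 and 0.39, and the cationic amino acid carrier SLC7A1 rose by 0.67. VLDLR, a lipoprotein receptor induced by ATF4, was at 5.07, 5.09 and 4.46 CPM in Ctrl and at 14.9, 17.0 and 15.5 CPM with TGFβ (log2 fold-change 1.67, SE 0.111, edgeR adjusted p = 5.87e-11). The glycine carrier SLC6A9 fell by 0.57, and the cystine carrier SLC7A11 was not called (log2 fold-change -0.14, edgeR adjusted p = 0.0860).

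Of the 13 synthetases, 10 were significantly higher in stimulated MI-spheres, none was lower and none was a DEG. Their log2 fold-changes ran from 0.05 to 0.67 with a median of 0.37. IARS1, the isoleucine enzyme, was at 256, 254 and 255 CPM in Ctrl and at 386, 378 and 423 CPM with TGFβ (log2 fold-change 0.61, SE 0.0521, edgeR adjusted p = 3.12e-09). TARS1 (threonine) rose by 0.67, YARS1 (tyrosine) by 0.50, GARS1 (glycine) by 0.45, SARS1 (serine) by 0.44, VARS1 (valine) by 0.42, EPRS1 (glutamate and proline) by 0.37, LARS1 (leucine) by 0.25, WARS1 (tryptophan) by 0.24 and AARS1 (alanine) by 0.16. CARS1, NARS1 and MARS1, for cysteine, asparagine and methionine, were not called, with values of 0.09, 0.08 and 0.05. The call of AARS1 was lost in 7 of 14 alternative settings (log2 fold-change 0.12 to 0.23).

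The synthetases outside the list moved with those in it. All 7 other cytosolic synthetases were significantly higher in stimulated MI-spheres (log2 fold-change 0.22 to 0.70, median 0.32), as were 2 of 3 proteins that scaffold the cytosolic synthetase complex. Of 17 mitochondrial synthetases, which serve translation in the organelle, 16 were tested and 13 were higher, with none lower and a median of 0.33. The rise thus spanned synthetases from within and from outside the ATF4 list. In the list of eIF2 kinases, eIF2 and eIF2B with 14 genes, 8 were higher and 2 lower. PPP1R15A was the only DEG among them, at 105.2, 102.4 and 103.2 CPM in Ctrl and 30.9, 34.3 and 29.6 CPM with TGFβ (log2 fold-change -1.74, SE 0.0635, edgeR adjusted p = 2.86e-15). Of 23 other ATF4 targets and partners, 18 were tested, 9 were higher and 3 lower. DDIT4, an inhibitor of mTORC1, VEGFA, the endothelial growth factor, and STC2, a stress-induced secreted glycoprotein, were DEGs with rises of 1.19, 1.06 and 1.13. Of the remaining DEGs of this list, outside the rule for named genes and chosen after their values were seen, ALDH1L2 rose by 1.73 from a mean of 1.79 CPM to 6.12 CPM, and ATF3 and JDP2 fell by 1.38 and 1.19.

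**Figure D2:**
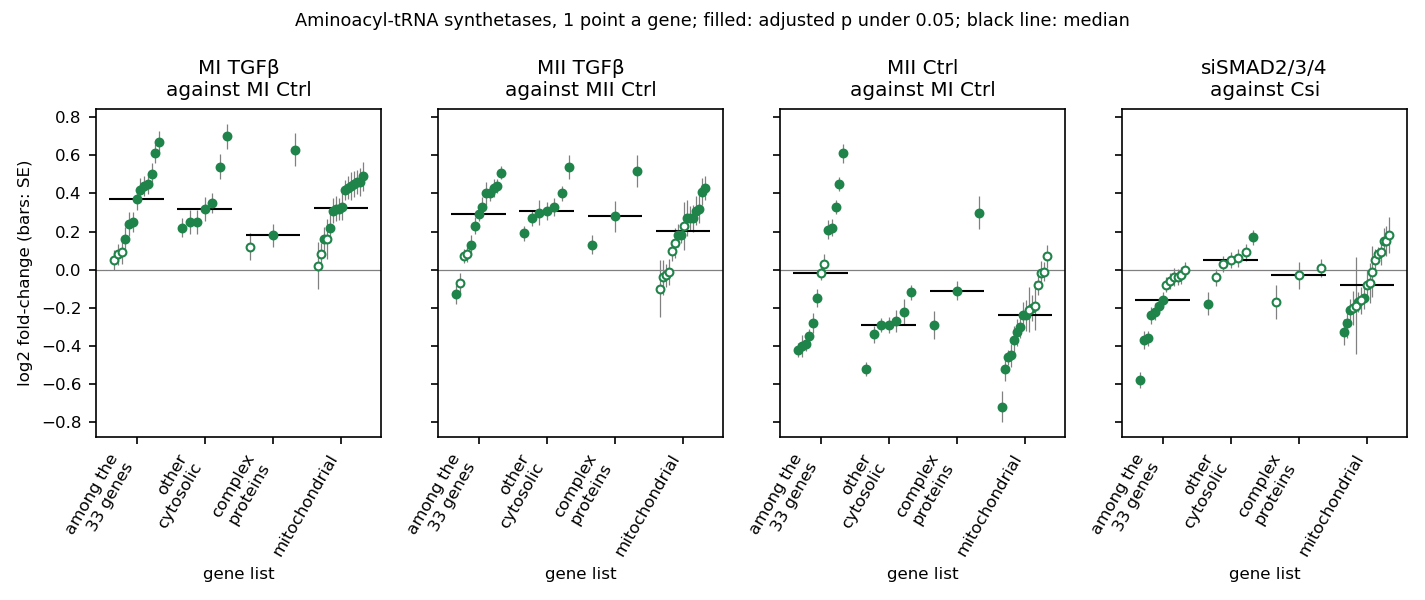
log2 fold-change (vertical axis, SE bars) of each synthetase or complex protein in 4 comparisons (panels), sorted within each gene list, with filled points for an adjusted p under 0.05 and a black line for the median. In MI- and MII-spheres all 7 other cytosolic synthetases lie above 0 with TGFβ, and in the comparison of the unstimulated lines all 7 lie below 0.

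In MII-spheres the serine enzymes and most synthetases rose with TGFβ, CHAC1, DDIT3 and ASNS fell, and ATF4 RNA fell as well. The limits on the counts of DDIT3 and ASNS given for MI-spheres apply here too. Of the 33 genes, 21 were significantly higher and 6 lower with TGFβ, where 29.9% of all genes tested were higher and 27.6% lower. Their median log2 fold-change was 0.33, against -0.018 over all genes tested. Only CHAC1 and ASNS were DEGs, both lower. Of all 16396 genes tested, 10.6% were DEGs in either direction, 511 higher and 1230 lower. The summed epithelial markers stood at 752 to 802 CPM in Ctrl and 1215 to 1228 CPM with TGFβ. TP63 was scarce in MII-spheres and CDH1 abundant, so this sum is not a measure of basal identity. The mesenchymal markers stood at 161.2 to 164.5 CPM and 219.7 to 235.1 CPM, the receptors at 358.7 to 383.3 CPM and 324.9 to 348.5 CPM, and the mitochondrial RNA share at 1.41% to 1.66% and 1.02% to 1.18%. Their part was not tested.

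SLC3A2, the heavy chain shared by LAT1 and the cystine exchanger, was at 334, 342 and 338 CPM in MII Ctrl and at 549, 521 and 540 CPM in MII TGFβ (log2 fold-change 0.63, SE 0.0344, edgeR adjusted p = 3.35e-22). Its partner in cystine exchange, SLC7A11, fell from 137, 138 and 143 CPM to 93.7, 84.6 and 88.8 CPM (log2 fold-change -0.68, SE 0.0452, edgeR adjusted p = 1.33e-18). Its partner in leucine exchange, SLC7A5, rose by 0.37, so the subunits of the cystine exchanger moved apart and those of LAT1 together. SLC7A1 and VLDLR rose by 0.45 and 0.50, and SLC6A9 was not called at 0.05.

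ATF4 was at 379, 364 and 376 CPM in MII Ctrl and at 300, 293 and 310 CPM in MII TGFβ, without overlap (log2 fold-change -0.34, SE 0.0356, edgeR adjusted p = 8.22e-12). CHAC1 fell from 11.7, 11.3 and 11.7 CPM to 3.58, 3.73 and 3.90 CPM (log2 fold-change -1.66, SE 0.136, edgeR adjusted p = 2.71e-15). DDIT3 was at 7.65, 7.08 and 6.78 CPM in Ctrl and at 3.31, 4.19 and 4.17 CPM with TGFβ (log2 fold-change -0.91, SE 0.154, edgeR adjusted p = 1.51e-06). These 3 regulators thus lay lower in each stimulated library than in any Ctrl library. TRIB3 moved little, from 13.2, 12.9 and 13.8 CPM to 16.2, 16.6 and 15.6 CPM (log2 fold-change 0.25, SE 0.0935, edgeR adjusted p = 0.0215), and its call held in 9 of 14 alternative settings. CEBPB (0.02) and SESN2 (-0.15) were not called. ASNS was at 2.68, 2.60 and 2.68 CPM in Ctrl and at 1.13, 1.18 and 0.403 CPM with TGFβ, with 6 to 18 counts in the stimulated libraries (log2 fold-change -1.57, SE 0.296, edgeR adjusted p = 1.03e-05). Its readthrough neighbour had 81 to 173 counts in MII Ctrl and 41 to 46 in MII TGFβ.

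All 5 serine, glycine and folate enzymes were higher in stimulated MII-spheres as well. SHMT2 was at 69.8, 66.6 and 63.0 CPM in Ctrl and at 109.6, 103.6 and 108.6 CPM with TGFβ (log2 fold-change 0.66, SE 0.0493, edgeR adjusted p = 1.05e-16). MTHFD2 rose by 0.69, PSAT1 by 0.66, PHGDH by 0.44 and PSPH by 0.41. ALDH18A1 and PYCR1 rose by 0.46 and 0.57. Among the 13 synthetases, 9 were higher, AARS1 was lower and 3 were not called, with a range from -0.13 to 0.51 and a median of 0.29. TARS1 was at 240, 236 and 233 CPM in Ctrl and at 339, 343 and 349 CPM with TGFβ (log2 fold-change 0.51, SE 0.0356, edgeR adjusted p = 9.62e-18). IARS1 was at 360, 333 and 355 CPM and at 498, 478 and 479 CPM (log2 fold-change 0.44, SE 0.0357, edgeR adjusted p = 1.59e-15). VARS1 rose by 0.43, EPRS1 and WARS1 by 0.40, GARS1 by 0.33, NARS1 by 0.29, MARS1 by 0.23 and YARS1 by 0.13. AARS1 had a log2 fold-change of -0.13 with overlapping groups, and its call was lost in 8 of 14 alternative settings.

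Outside the list, all 7 other cytosolic synthetases were again higher (0.19 to 0.54), as were the 3 complex proteins and 9 of the 16 mitochondrial synthetases tested, with none lower. PPP1R15A fell from 118, 116 and 120 CPM to 56.5, 58.6 and 59.1 CPM (log2 fold-change -1.05, SE 0.0486, edgeR adjusted p = 3.81e-25), while 9 of the 14 genes in its list were higher. Of 18 other ATF4 targets and partners tested, 2 were higher and 5 lower, where 29.9% of all genes tested were higher and 27.6% lower. The DEG among them, NIBAN1, was scarce in MII-spheres (0.492 to 1.68 CPM).

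The responses of the lines differed for 16 of the 33 genes in a test of the interaction of line and TGFβ. The interaction, the log2 fold-change in MII- minus that in MI-spheres, was significantly positive for 5 genes and negative for 11, where 12.6% of all genes tested were positive and 9.75% negative. The interaction of PSAT1 was -1.41 (SE 0.113, edgeR adjusted p = 1.09e-12), since its rise of 2.08 in MI-spheres shrank to 0.66. That of TRIB3 was -1.39 (SE 0.116, edgeR adjusted p = 2.42e-12) and that of PSPH -1.31 (SE 0.138, edgeR adjusted p = 9.12e-10). All 3 thus rose less in MII-spheres on the log2 scale, and VLDLR did so too (-1.16, SE 0.130, edgeR adjusted p = 3.78e-09). The levels reached with TGFβ need not be lower in MII. PSAT1 averaged 31.3 CPM in MI TGFβ and 32.9 CPM in MII TGFβ, and VLDLR 15.8 and 27.6 CPM. TRIB3 averaged 76.6 and 16.1 CPM, and PSPH 34.3 and 12.5 CPM. ATF4 (-0.41, SE 0.0645, edgeR adjusted p = 5.24e-06) and SLC7A11 (-0.53, SE 0.0817, edgeR adjusted p = 3.35e-06) fell in MII-spheres and were not called in MI-spheres. CHAC1 differed in the other direction (1.13, SE 0.272, edgeR adjusted p = 0.00175), because its fall was shallower in MII-spheres.

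No difference between the lines was called for DDIT3 (-0.10, 95% interval -0.54 to 0.35), nor for ASNS (0.56, -0.32 to 1.45), whose interval is wide. Of the synthetases, 9 of 13 were not called, with negative interactions for AARS1, SARS1 and YARS1 and a positive one of 0.23 for NARS1. Among genes outside the list, DDIT4 (-1.22), VEGFA (-1.13) and STC2 (-1.16), which rose in MI-spheres, were not called in MII-spheres (-0.05, -0.08 and -0.04), while JDP2, a repressor of AP-1, differed by 1.35. JDP2 fell by 1.19 in MI-spheres and was not called in MII-spheres (0.15), and ATF3, a stress-induced partner of ATF4, fell by 1.38 and 0.54. In all, the interaction was negative for 9 and positive for 2 of 19 other ATF4 targets and partners tested, and negative for 1 and positive for 2 of the 14 genes of the eIF2 list. It was negative for 1 of the 7 other cytosolic and 4 of the 16 mitochondrial synthetases tested. The sign compares log2 fold-changes and does not by itself give the smaller response: SLC1A5, a glutamine carrier with an interaction of -0.72, rose by 0.19 in MI-spheres and fell by 0.54 in MII-spheres. The counts of all 4 comparisons within spheres draw on the same 12 libraries.

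**Figure D3:**
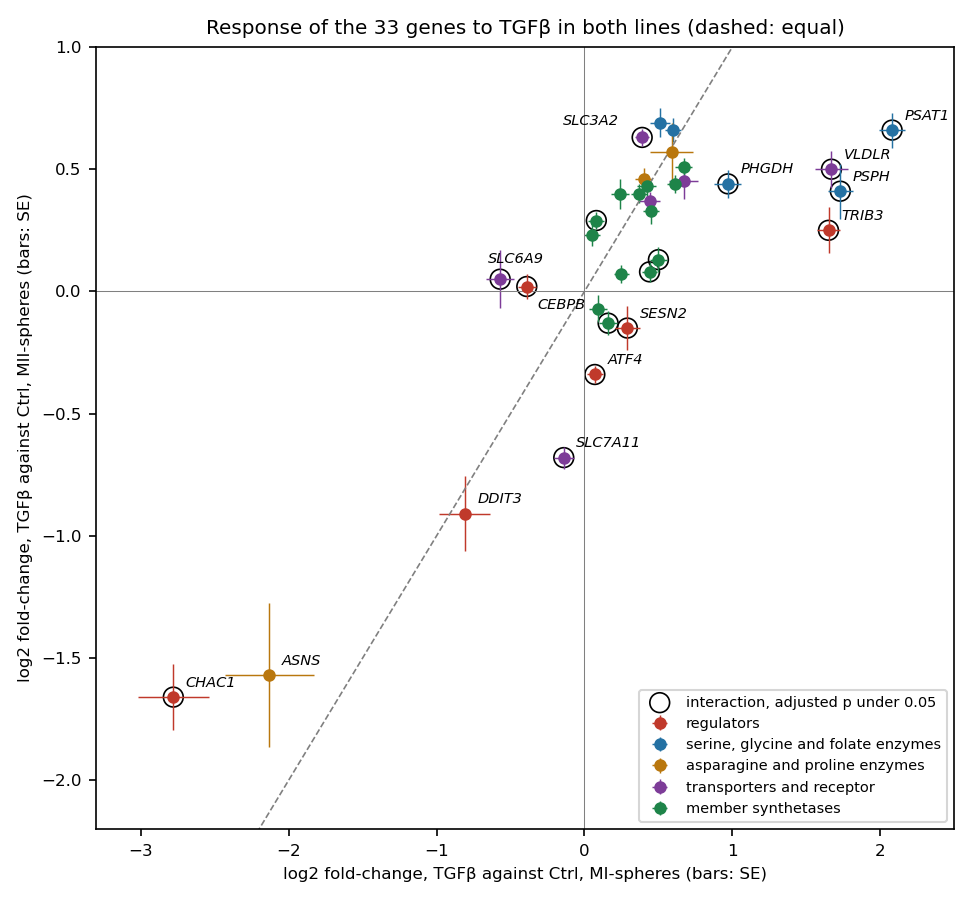
log2 fold-change with TGFβ in MI-spheres (horizontal axis) and MII-spheres (vertical axis) of the 33 genes, coloured by role, with SE bars, a dashed line of equal response and rings for an interaction with an adjusted p under 0.05. PSAT1, PSPH, VLDLR and TRIB3 lie far to the right of the dashed line, and CHAC1, ASNS and DDIT3 lie below 0 on both axes.

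Without stimulation, MII-spheres had more RNA for cystine uptake and for the opening steps of serine synthesis than MI-spheres. Of the 33 genes, 15 were significantly higher and 11 lower in MII Ctrl, where 31.7% of all genes tested were higher and 32.5% lower. The median was 0.09 over the 33 genes and 0.017 over all genes. Among them 5 were DEGs, all higher in MII. Of all 17862 genes tested, 20.1% were DEGs in either direction, 2225 higher and 1361 lower. The control libraries of this comparison also enter the TGFβ comparisons. The summed epithelial markers were at 720 to 739 CPM in MI Ctrl and 752 to 802 CPM in MII Ctrl, but their members differed in both directions. KRT5 was at or above 101.9 CPM in MI Ctrl and at or below 19.8 CPM in MII Ctrl. TP63 averaged 49.9 and 0.612 CPM, EPCAM 60.6 and 184.0 CPM and KRT14 1.52 and 8.30 CPM in MI and MII Ctrl. The mesenchymal sums were 189.7 to 195.1 and 161.2 to 164.5 CPM, the receptor sums 323.6 to 333.4 and 358.7 to 383.3 CPM, and the part of such marker differences was not tested.

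SLC7A11 was at 38.4, 35.0 and 37.4 CPM in MI Ctrl and at 137, 138 and 143 CPM in MII Ctrl (log2 fold-change 1.91, SE 0.0483, edgeR adjusted p = 1.97e-38). PHGDH was at 11.7, 11.0 and 10.4 CPM in MI Ctrl and at 45.2, 48.3 and 43.6 CPM in MII Ctrl, 4.13-fold higher (log2 fold-change 2.05, SE 0.0717, edgeR adjusted p = 9.68e-32). PSAT1 was at 20.9, 20.5 and 19.7 CPM in MII Ctrl (log2 fold-change 1.48, SE 0.0919, edgeR adjusted p = 1.16e-20). PSPH did not share this pattern (-0.15, edgeR adjusted p = 0.221), and SHMT2 and MTHFD2 were lower in MII by 0.23 and 0.58. VLDLR stood at 19.6, 18.7 and 19.2 CPM in MII Ctrl (log2 fold-change 1.96, SE 0.102, edgeR adjusted p = 5.85e-24), with a lowest library above the highest of stimulated MI-spheres. SLC7A5 was at 269, 256 and 243 CPM in MI Ctrl and at 432, 498 and 456 CPM in MII Ctrl (log2 fold-change 0.85, SE 0.0401, edgeR adjusted p = 8.01e-26), and SLC3A2 was higher by 0.44.

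Of the regulators, CHAC1, DDIT3 and ATF4 were higher in unstimulated MII-spheres and TRIB3 was lower. CHAC1 differed by 1.15 (SE 0.118, edgeR adjusted p = 1.20e-12), DDIT3 by 0.75 (SE 0.137, edgeR adjusted p = 3.64e-06) and ATF4 by 0.27 (SE 0.0360, edgeR adjusted p = 4.93e-09). TRIB3 differed by -0.86 (SE 0.0810, edgeR adjusted p = 8.08e-14). The libraries are those of the levels printed above. ASNS was not called (0.29, SE 0.212, edgeR adjusted p = 0.238), nor were CEBPB, SESN2, SLC7A1, YARS1 and LARS1. SLC6A9 was lower in MII by 0.99 and ALDH18A1 by 0.41, and PYCR1 was higher by 0.65.

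Of the 13 synthetases, 5 were higher and 6 lower in MII Ctrl, where 31.7% of all genes tested were higher and 32.5% lower. AARS1 was at 58.4, 58.6 and 58.1 CPM in MI Ctrl and at 85.9, 93.2 and 88.9 CPM in MII Ctrl (log2 fold-change 0.61, SE 0.0481, edgeR adjusted p = 1.12e-16). IARS1, TARS1, MARS1 and CARS1 were higher by 0.45, 0.33, 0.22 and 0.21. EPRS1 (-0.42), WARS1 (-0.40), NARS1 (-0.39), SARS1 (-0.35), GARS1 (-0.28) and VARS1 (-0.15) were lower. The 7 other cytosolic synthetases were all lower in MII (median -0.29), as were 10 of 16 mitochondrial synthetases tested, with none higher. Of the eIF2 list, 10 of 14 genes were lower and 2 higher, of the complex proteins 2 and 1, and of 19 other ATF4 targets and partners tested 7 and 10. ALDH1L2, a mitochondrial folate enzyme, was lower by 1.74 at 0.273 to 0.916 CPM in MII Ctrl, and NIBAN1 was higher by 2.05 at similarly low levels.

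Knockdown of SMAD2, SMAD3 and SMAD4 in MDA-MB-231 lowered more of the 33 genes than it raised. In siSMAD2/3/4 19 genes were significantly lower and 2 higher than in Csi, where 19.7% of all genes tested were lower and 16.3% higher. The median log2 fold-change was -0.20, against 0.004 over all genes. None of the 33 genes was a DEG, where 1.90% of all genes were. The names of the deposited files place siSMAD2/3/4 replicates 1 and 2 on another flow cell than the other 4 libraries, while the labels give all 6 the same batch. With flow cell as a term, the group difference is carried only by siSMAD2/3/4 replicate 3, which shares a flow cell with Csi. The median over the 33 genes was -0.20 in that fit too, but it cannot tell the knockdown from the state of that single library. The mitochondrial RNA share was 3.81% to 4.95% in Csi and 4.87% to 6.02% in siSMAD2/3/4, the summed epithelial markers were at 40.2 to 41.8 CPM and 33.5 to 33.8 CPM, and the summed level of the mesenchymal markers was 2805 to 2938 CPM and 2595 to 2624 CPM. Their part was not tested.

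PSAT1 changed most, from 91.1, 99.9 and 100.6 CPM in Csi to 51.2, 52.2 and 51.2 CPM (log2 fold-change -0.92, SE 0.0489, edgeR adjusted p = 1.10e-15). WARS1, the tryptophan enzyme, which is also induced by interferon gamma, was at 158, 166 and 162 CPM in Csi and at 109.1, 109.2 and 106.6 CPM in siSMAD2/3/4 (log2 fold-change -0.58, SE 0.0415, edgeR adjusted p = 7.99e-13). IARS1 fell from 307, 324 and 314 CPM to 249, 240 and 248 CPM (log2 fold-change -0.36, SE 0.0389, edgeR adjusted p = 6.36e-09). None of these groups overlapped. SHMT2 was at 128, 130 and 143 CPM in Csi and at 102.2, 100.3 and 100.5 CPM in siSMAD2/3/4 (log2 fold-change -0.41, SE 0.0452, edgeR adjusted p = 1.05e-08). SLC7A1 was at 220, 204 and 208 CPM in Csi and at 166, 164 and 162 CPM in siSMAD2/3/4 (log2 fold-change -0.36, SE 0.0408, edgeR adjusted p = 1.63e-08). The transporter SLC7A5 went the other way, from 425, 414 and 428 CPM to 513, 552 and 521 CPM (log2 fold-change 0.32, SE 0.0386, edgeR adjusted p = 4.23e-08), and its partner SLC3A2 was not called at 0.08.

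PHGDH (-0.69), VLDLR (-0.55) and MTHFD2 (-0.19) were also lower, whereas PSPH was not called (-0.08), so 4 of the 5 serine, glycine and folate enzymes were lower. The call of MTHFD2 was lost in 3 of the fits that left out a library. It was also lost with flow cell as a term, where only siSMAD2/3/4 replicate 3 carries the group difference. ATF4 was at 137, 140 and 139 CPM in Csi and at 138, 132 and 132 CPM in siSMAD2/3/4 (log2 fold-change -0.05, SE 0.0412, edgeR adjusted p = 0.403), a 95% interval of -0.13 to 0.03. TRIB3 was at 46.4, 45.2 and 41.3 CPM and at 37.7, 37.9 and 36.6 CPM (log2 fold-change -0.24, SE 0.0577, edgeR adjusted p = 0.00118). The regulators CEBPB and SESN2 fell by 0.27 and 0.32. CHAC1 was at 5.73, 5.36 and 4.52 CPM and at 4.06, 4.32 and 3.70 CPM (log2 fold-change -0.36, SE 0.136, edgeR adjusted p = 0.0346), and its call was lost in 7 of 14 alternative settings. DDIT3 at 6.52, 5.73 and 7.33 CPM in Csi and 6.62, 5.34 and 5.02 CPM in siSMAD2/3/4 overlapped between the groups (log2 fold-change -0.20, SE 0.126, edgeR adjusted p = 0.233). ASNS overlapped too, with 1.84, 1.77 and 2.53 CPM in Csi and 2.06, 1.59 and 1.47 CPM in siSMAD2/3/4 (log2 fold-change -0.26, SE 0.220, edgeR adjusted p = 0.388).

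Among the synthetases 7 of 13 were lower and none was higher. Besides WARS1 and IARS1 these were YARS1 (-0.37), NARS1 (-0.24), AARS1 (-0.22), MARS1 (-0.19) and GARS1 (-0.16). LARS1, EPRS1, CARS1, TARS1, SARS1 and VARS1 lay between -0.08 and 0.00 and were not called. Of the 7 other cytosolic synthetases 1 was higher and 1 lower, with a median of 0.05, and of 17 mitochondrial synthetases 5 were lower and 12 not called. With flow cell as a term, only siSMAD2/3/4 replicate 3 carries the group difference, and the calls of GARS1 and NARS1 were lost. The median was then -0.13 for the 13 member synthetases, 0.06 for the other cytosolic and -0.11 for the mitochondrial synthetases. None of the 3 complex proteins was called, and of the 14 genes of the eIF2 list 3 were higher and 2 lower. PYCR1 fell by 0.24 and SLC7A11 by 0.17, SLC6A9 was higher by 0.13 with overlapping groups, and ALDH18A1 was not called. Of 21 other ATF4 targets and partners tested, 10 were lower and 2 higher. SLC1A4, a carrier of serine and other neutral amino acids, was a DEG at 25.1, 23.6 and 24.2 CPM in Csi and 11.9, 12 and 12 CPM in siSMAD2/3/4 (log2 fold-change -1.02, SE 0.0744, edgeR adjusted p = 1.31e-12). NUPR1, a small stress-induced chromatin protein, had a log2 fold-change of -1.04 at 0.352 to 1.33 CPM.

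**Figure D4:**
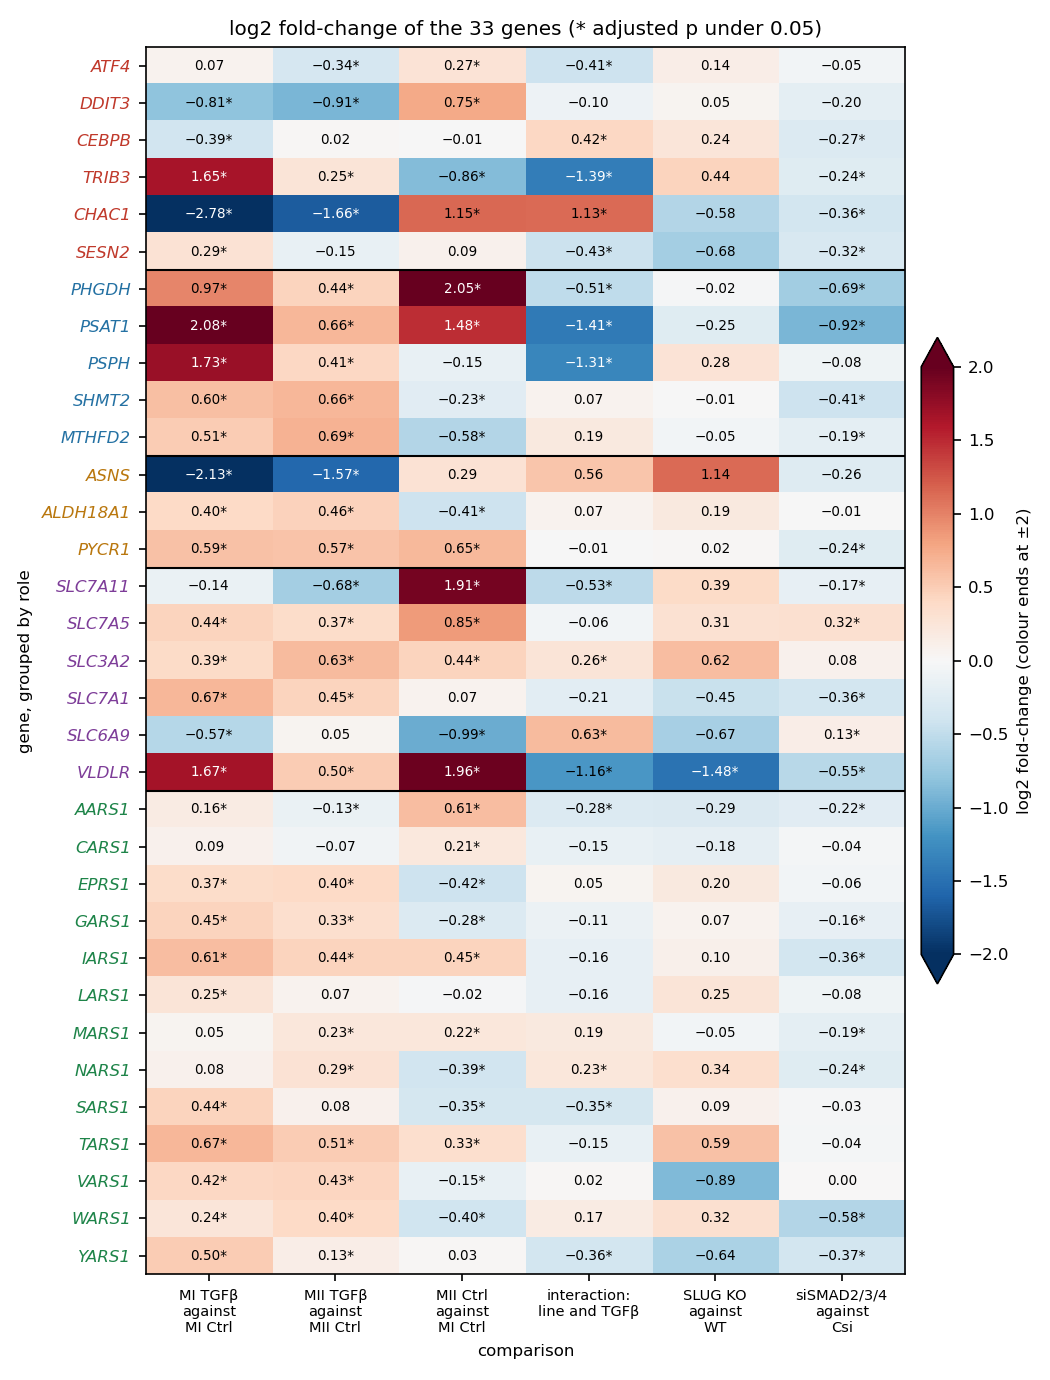
log2 fold-change of the 33 genes (rows, grouped by role) in 6 comparisons (columns), with an asterisk for an adjusted p under 0.05 and colours that end at ±2. The serine, glycine and folate enzymes are positive in both TGFβ columns, and in the siSMAD2/3/4 column 4 of the 5 are marked and negative.

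Between WT and the libraries labelled SLUG KO 1 gene of the list was called when all 6 libraries were used, and SNAI2 RNA was higher, not lower, in them. None of the 33 genes was significantly higher and 1 was lower, where 1.45% of all genes tested were higher and 1.89% lower. That gene was also a DEG, as were 3.05% of all 17428 genes in either direction, 217 higher and 314 lower. At an unadjusted edgeR p under 0.05 there were 3 members higher and 2 lower, and DESeq2 called 1 higher after adjustment, SLC3A2. The gene called lower was VLDLR, at 12.1, 14.3 and 8.58 CPM in WT and at 3.68, 4.67 and 4.17 CPM in the libraries labelled SLUG KO (log2 fold-change -1.48, SE 0.252, edgeR adjusted p = 0.0245). Its call held in 7 of 13 alternative settings, with an adjusted p up to 0.162. WT replicate 2 stood apart for many of the genes. VARS1 was at 162, 471 and 174 CPM in WT, SLC7A5 at 157, 436 and 169 CPM, SLC7A1 at 159, 306 and 133 CPM and SLC7A11 at 104.2, 45.9 and 105.2 CPM. VARS1, SLC7A5 and SLC7A1 were highest in WT replicate 2 and SLC7A11 lowest.

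Without WT replicate 2, 8 genes were significantly higher and 4 lower in the libraries labelled SLUG KO, where 16.8% of all genes tested were higher and 14.4% lower. SLC7A5 then differed by 0.95 (SE 0.0890, edgeR adjusted p = 8.31e-07) and SLC3A2 by 0.73 (SE 0.0967, edgeR adjusted p = 3.35e-05), so that both LAT1 subunits were higher. TRIB3 (0.63), CEBPB (0.47), TARS1 (0.42), PYCR1 (0.38), WARS1 (0.29) and ASNS (1.19, edgeR adjusted p = 0.0215) were also higher. The lower genes were VLDLR (-1.30, edgeR adjusted p = 4.37e-05), YARS1 (-0.53), PSAT1 (-0.46) and MTHFD2 (-0.32). The WT group then holds 2 libraries. Of the other lists, 7 of 20 ATF4 targets and partners tested were then higher and 3 lower, and 3 and 4 of the 14 genes of the eIF2 list. The summed mesenchymal markers were 2832 to 3530 CPM in WT and 2624 to 2795 CPM in the libraries labelled SLUG KO, and their part was not tested.

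In the 6 libraries ATF4 was at 161, 155 and 197 CPM in WT and at 192, 179 and 194 CPM in the libraries labelled SLUG KO (log2 fold-change 0.14, SE 0.168, edgeR adjusted p = 0.685), with overlapping groups. DDIT3 was close in all 6, at 6.72, 7.12 and 6.82 CPM and 6.78, 7.14 and 7.49 CPM (log2 fold-change 0.05, SE 0.181, edgeR adjusted p = 0.892). TRIB3 was at 16.1, 23.8 and 17.7 CPM and 26.3, 24.0 and 27.7 CPM (log2 fold-change 0.44, SE 0.204, edgeR adjusted p = 0.299). CHAC1, at 2.62, 5.56 and 4.12 CPM and 3.14, 1.75 and 3.32 CPM, overlapped (log2 fold-change -0.58, SE 0.369, edgeR adjusted p = 0.433). ASNS did not overlap, at 0.984, 0.801 and 0.505 CPM and 1.53, 1.75 and 1.80 CPM (log2 fold-change 1.14, SE 0.330, edgeR adjusted p = 0.129), on 12 to 38 counts a library. The remaining 27 genes had log2 fold-changes between -0.89 (VARS1) and 0.62 (SLC3A2) and were not called. Of the other lists, only DDIT4 was a DEG, at 70.4, 74.3 and 77.3 CPM in WT and 154, 157 and 139 CPM in the libraries labelled SLUG KO (log2 fold-change 1.02, SE 0.155, edgeR adjusted p = 0.0161), which held in 7 of 13 alternative settings.

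**Figure D5:**
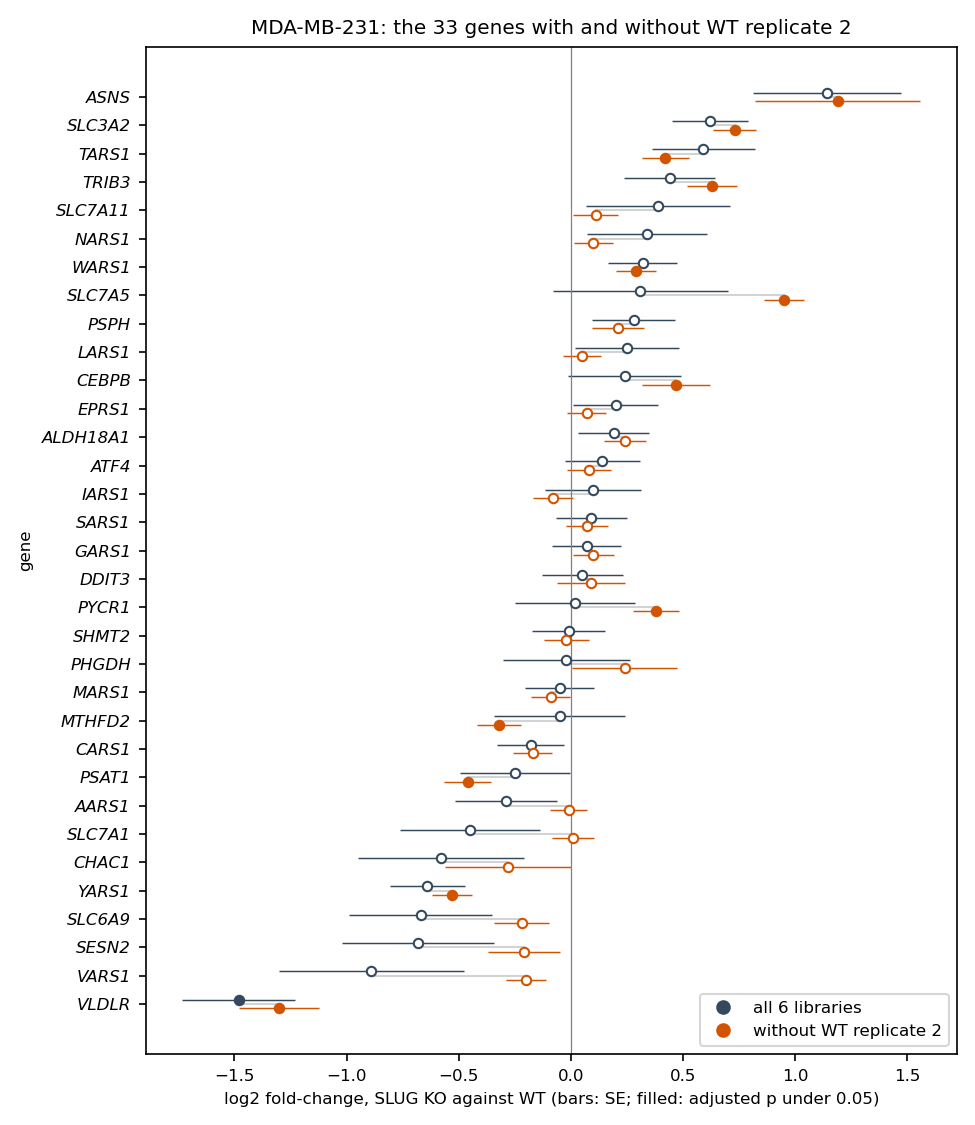
log2 fold-change (horizontal axis, SE bars) of the 33 genes (rows, sorted) between the libraries labelled SLUG KO and WT, with all 6 libraries in dark blue and without WT replicate 2 in orange, filled at an adjusted p under 0.05. VLDLR is filled in both fits, and SLC7A5 moves from 0.31 to 0.95 without WT replicate 2.

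Levels were also divided by exon length in kilobases. This length counts all annotated exons of a gene (9187 bp for PHGDH, 2206 bp for PSAT1) and need not be that of its transcripts. The order of different genes on this scale is therefore uncertain. ATF4 was the most abundant regulator in every group, at 118, 127, 143 and 115 CPM per kb in MI Ctrl, MI TGFβ, MII Ctrl and MII TGFβ. It was at 65.6 in WT, 72.1 in SLUG KO, 53.0 in Csi and 51.3 in siSMAD2/3/4. Within the spheres the order of ATF4 was MII Ctrl, MI TGFβ, MI Ctrl and MII TGFβ, and neither MI TGFβ and MI Ctrl nor MI Ctrl and MII TGFβ, neighbours in this order, were separated in their library levels. The serine enzymes were arranged differently in the lines. In MI Ctrl PHGDH, PSAT1 and PSPH were at 1.20, 3.31 and 3.69 CPM per kb, and in MII Ctrl at 4.97, 9.24 and 3.38. Without division by length, PHGDH (45.7 CPM) lay above PSAT1 (20.4 CPM) in MII Ctrl. In Csi, scaled apart, PHGDH was at 1.04 and PSAT1 at 44.1 CPM per kb. ASNS was under 0.6 CPM per kb in every group. That value divides by its full exon length, although the readthrough gene covers 49.3% of it and pairs there went to neither gene. NARS1 led the synthetases in MI Ctrl at 83.9 CPM per kb, and TARS1 led them in WT at 133 CPM per kb.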

How the data were processed

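RNA-seq counts of 24 libraries were used. Libraries were depleted of ribosomal RNA. The authors used Trimmomatic for trimming, STAR for alignment (GRCh38) and featureCounts (Subread 2.0.0) for counting read pairs over the exons of GENCODE 38 genes. Per the file headers both ends had to map with a mapping quality of at least 30, and strand was ignored although the kit keeps it. The deposited files hold raw counts, 1 library each, without normalization. Symbols came from GENCODE 44 and covered 60463 of 60708 genes. Groups follow the labels.

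Fits used the 6 libraries of a comparison, or 12 for the interaction, in edgeR 4.0.16 under R 4.3.3 (filterByExpr, TMM, quasi-likelihood test, Benjamini-Hochberg). SEs were derived from the log2 fold-change and the F statistic together with the normal 95% intervals. The members and lists were chosen with earlier results of these data known, and no set test was run. Named in full are, per comparison, the 6 members with the smallest adjusted p among those past it, and ATF4, DDIT3, TRIB3, CHAC1 and ASNS. Genes of other lists are named where they are DEGs, up to 4 per comparison. The fits were tested on simulated data. Alternatives were DESeq2 1.42.0, its size factors, 2 other count filters, a gene-length trend, a replicate block with and without that trend, a fit of all spheres together, a term for flow cell, and each library left out in turn. Replicates of a group differed by more than sampling noise (chi-square per gene 1.92 to 288). Figures were drawn with matplotlib 3.10.9.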

Additional observations from a re-analysis of the deposited data

Results flagged for a closer look

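For 16 of the 33 genes the response to TGFβ differed between MI- and MII-spheres in the interaction test (edgeR, 12 libraries, p-values corrected by Benjamini-Hochberg over 18591 genes). Values are the response in MII- minus that in MI-spheres on the log2 scale. Of all genes tested, 12.6% were significantly positive and 9.75% negative. The difference was negative for PSAT1 (-1.41), TRIB3 (-1.39), PSPH (-1.31), VLDLR (-1.16), SLC7A11 (-0.53), PHGDH (-0.51), SESN2 (-0.43), ATF4 (-0.41), YARS1 (-0.36), SARS1 (-0.35) and AARS1 (-0.28). It was positive for CHAC1 (1.13), SLC6A9 (0.63), CEBPB (0.42), SLC3A2 (0.26) and NARS1 (0.23). Of these, NARS1 was past the threshold in 12 of 19 alternative settings and the other 15 in all 19. Groups of 3 libraries are too small for a test of single outlying libraries.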

How the results depend on the processing

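No member called in a comparison changed direction under any alternative. The numbers of members called stayed within 1.5 times of the reported ones for the 4 comparisons within spheres, where leaving out each library gave 22 to 23 higher and 5 to 6 lower in MI-spheres, 20 to 22 higher and 5 to 6 lower in MII-spheres, 15 higher and 11 lower between the unstimulated lines, and 4 to 6 higher and 11 to 15 lower for the interaction. For siSMAD2/3/4, the 2 members called higher became 1 with DESeq2, without the low-count filter, with flow cell as a term and, leaving out each library, 1 to 2, since the call of SLC6A9 was lost, and 17 to 18 were lower when a library was left out. Flow cell as a term also lowered the number of genes called in both directions. In that fit only siSMAD2/3/4 replicate 3 carries the group difference, so its calls rest on a single knockdown library. For the libraries labelled SLUG KO, DESeq2 called 1 member higher (SLC3A2), and leaving out each library gave 0 to 8 members higher and 0 to 4 lower, with the upper ends reached without WT replicate 2. Over all genes this comparison called 252 higher and 329 lower, but 554 and 659 with DESeq2, 400 and 573 without the low-count filter, 143 and 117 with at least 10 counts in every library, and 49 to 3013 and 79 to 2579 on leaving out each library. The causes were not tested. Deviations of same-numbered libraries from their group means correlated between -0.292 and 0.117, and in no comparison did every pair exceed 0.1. The check cannot exclude that libraries were paired. With a replicate block, alone or with the gene-length trend, VLDLR was no longer called in SLUG KO (0 members lower) and 87 or 62 genes were higher and 168 or 124 lower there, while the block alone kept the 23 higher and 5 lower members of MI-spheres and changed no other call by over 1.5 times. Low counts limit ASNS (6 to 93 counts a library) and CHAC1 (13 to 343) most. For ASNS, pairs on the exons shared with the readthrough gene are missing from the count. ASNS was not tested in MII-spheres with at least 10 counts in every library.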
